A study of Mus musculus with 24 samples.

Results

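The distal end of the lower jaw was compared with its proximal end in mouse embryos that lacked the TGF-beta receptor Alk5 in the neural crest. The comparison rests on 8 of the 24 arrays of the series, 4 distal and 4 proximal, chosen by the tissue, end and genotype in the sample titles and paired by the replicate number given there. Embryos came from matings of Wnt1cre;Alk5fl/+ with Alk5fl/fl mice on a C57B6 background and were collected at embryonic day 12.5. Mutants were recognised by cleft palate and a defect of the calvaria, and each mandible and maxilla was cut into a distal and a proximal end. Besides the knockout mandible, the 8 knockout maxilla arrays and the 4 arrays of control littermate mandibles (2 per end) were used for comparison. The control littermates come from the same matings, and the labels do not give their alleles. Wnt1-Cre acts in the neural crest and its derivatives, so muscle, epithelium, vessels and blood keep the receptor in this model. The labels do not say whether an array holds 1 embryo or a pool, nor whether arrays with the same number come from the same embryos, so p-values measure the spread between these arrays.

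The mandible forms from the first pharyngeal arch, whose mesenchyme comes mostly from neural crest. Along the arch, position is set by signals from the epithelium and by homeobox genes: endothelin and Dlx5 and Dlx6 give the lower jaw its identity, BMP4 and the Hand factors mark the distal end towards the midline, and genes such as Barx1 mark the proximal part towards the jaw joint. Alk5 (gene symbol Tgfbr1) is a type I receptor that passes TGF-beta signals to Smad2 and Smad3. The question the dissection addresses is which genes distinguish the ends of the jaw, here in embryos without this receptor in the crest.

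By Hand2 and Dlx6 the arrays carried mandible. Hand2, a lower-jaw transcription factor, lay between 10.46 and 13.11 (log2 expression) on the 8 knockout mandible arrays and between 5.77 and 8.86 on the 8 knockout maxilla arrays. For Dlx6 the ranges were 9.24 to 10.44 and 6.88 to 8.78. Dlx5, Hand1 and Dlx3, also taken as mandibular markers, overlapped between the jaws, as with Dlx5 at 9.57 to 11.48 and 8.48 to 10.34. The maxillary and frontonasal markers Pou3f3, Alx1, Tbx22, Pax3 and Meis2 overlapped as well. The targeted gene does not check the genotype labels, because the deleted part of the transcript is not known to be covered by its probe sets: the brightest Tgfbr1 probe set read 12.07 to 12.52 in knockout mandible and 12.24 to 12.47 in control mandible. Its difference between the ends was -0.07 (SE 0.10, adjusted p = 0.817).

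Some libraries stood apart or ran against their labels. Knockout arrays 1 and 2 read 1.08 to 1.35 (log2) higher at the 3' than at the 5' end of the control transcripts beta-actin and Gapdh, a sign of shortened RNA, against 0.07 to 0.16 on arrays 3 and 4. The 2 ends shared this split: distal minus proximal was 0.18, 0.27, -0.06 and 0.02 in pairs 1 to 4 (exact sign-flip permutation test, 2-sided, p = 0.375, with 0.125 the smallest p that 4 pairs allow). For most genes that separated the ends of the knockout mandible, control arrays labelled 1 ran like the knockouts and those labelled 2 the other way. Over all genes tested this held mainly against knockout pairs 3 and 4. Distal minus proximal in the control pair labelled 1 correlated with knockout pairs 1 to 4 at 0.003, 0.18, 0.72 and 0.57. For the control pair labelled 2 the values were -0.045, -0.26, -0.77 and -0.64. Alx1, the gene with the largest difference here, was at 11.19 in the library labelled control distal 1 and 5.52 in the library labelled control proximal 1, but at 5.65 in the library labelled control distal 2 and 11.64 in the library labelled control proximal 2. Across the 13837 genes the distal minus proximal differences of those control pairs correlated at -0.78. Labels were kept as given, and results that rest on the controls are given with and without each pair. Xist, a female marker, read 5.75 to 13.71 on knockout mandible arrays and 5.70 to 5.96 on control mandible arrays. Kdm5d, on the Y chromosome, read 3.16 to 10.08 and 9.76 to 9.86. By these genes the knockout arrays were of both sexes and the control arrays male. Sex was not a term in the fits, and its part in the differences was not tested.

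Promoter sequence is shown for 4 of the genes the results turn on, Hand2 and Bmp4 on the distal side and Dlx1 and Bmper on the proximal side, each as 300 bases around the annotated transcription start (RefSeq, GRCm38.p6, 5′ to 3′ on the gene's strand). The windows are Hand2 at chr8:57320733-57321032 on the plus strand, Bmp4 at chr14:46390620-46390919 on the minus strand, Dlx1 at chr2:71529195-71529494 on the plus strand and Bmper at chr9:23222826-23223125 on the plus strand. Capitals mark every match on either strand to TAAT, the core bound by homeodomains such as those of Dlx, Alx and Msx proteins, or to CANNTG, the E-box bound by basic helix-loop-helix factors such as Hand2.
Hand2: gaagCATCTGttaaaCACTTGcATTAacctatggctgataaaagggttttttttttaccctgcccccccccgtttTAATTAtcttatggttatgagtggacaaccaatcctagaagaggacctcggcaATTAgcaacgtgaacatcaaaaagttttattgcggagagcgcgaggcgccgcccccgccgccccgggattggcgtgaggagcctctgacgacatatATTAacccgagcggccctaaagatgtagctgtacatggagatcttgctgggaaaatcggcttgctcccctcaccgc
Bmp4: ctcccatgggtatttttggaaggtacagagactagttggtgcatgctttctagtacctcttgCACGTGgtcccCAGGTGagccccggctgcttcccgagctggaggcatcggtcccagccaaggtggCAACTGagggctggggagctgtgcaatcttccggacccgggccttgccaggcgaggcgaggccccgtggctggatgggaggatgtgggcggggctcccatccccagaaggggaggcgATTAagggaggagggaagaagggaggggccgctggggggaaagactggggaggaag
Dlx1: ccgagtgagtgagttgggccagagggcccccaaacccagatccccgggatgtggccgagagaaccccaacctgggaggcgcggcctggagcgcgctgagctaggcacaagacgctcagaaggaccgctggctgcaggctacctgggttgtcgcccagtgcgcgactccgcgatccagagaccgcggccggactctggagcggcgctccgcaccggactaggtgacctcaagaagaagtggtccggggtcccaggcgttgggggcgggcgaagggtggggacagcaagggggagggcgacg
Bmper: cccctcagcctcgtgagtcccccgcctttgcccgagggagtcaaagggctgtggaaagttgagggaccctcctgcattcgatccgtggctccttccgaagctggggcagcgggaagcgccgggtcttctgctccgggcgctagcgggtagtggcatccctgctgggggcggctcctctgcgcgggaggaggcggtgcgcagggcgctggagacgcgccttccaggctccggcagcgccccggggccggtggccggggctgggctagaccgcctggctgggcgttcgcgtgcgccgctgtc
The Hand2 window held 5 matches to TAAT and 2 to CANNTG, and the Bmp4 window 1 and 3. In the Dlx1 and Bmper windows neither was found. Of 32851 promoters of the same length, 58% held TAAT and 72.3% held CANNTG. These matches describe the letters in the windows only.

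Of 13837 genes tested, 278 differed between the ends (2.01%; limma with the replicate number as a block, Benjamini-Hochberg adjusted p under 0.05). Of these, 97 were higher distally (0.701% of genes tested) and 181 higher proximally (1.31%). All 278 had the same sign in 4 of 4 pairs, which over all genes tested held for 10.1% with the distal and 13.1% with the proximal end higher. In 106 the difference was more than 2-fold. The distal and proximal arrays did not overlap for 152 of the 278, and for 3.87% of all genes tested. Among patterning genes of the arch, Alx1, Hand2, Bmp4 and Foxf1 were higher distally and Dlx4, Dlx3, Hmx1 and Foxc1 higher proximally. The number of calls depended on pairing and on single pairs: 18 genes passed without the replicate block, all 18 among the 278, and 13 passed without replicate 2, all 13 among the 278. In whole tissue pieces, fewer cells of a type and less RNA per cell cannot be told apart.

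**Figure D1:**
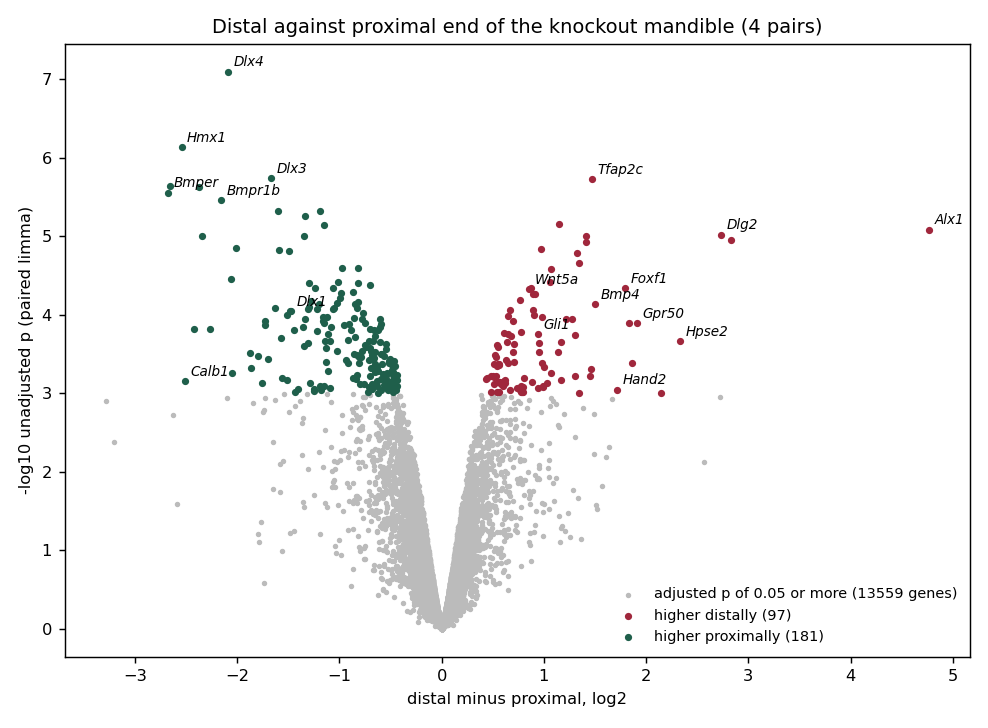
Distal minus proximal difference (log2, x axis) against -log10 of the unadjusted p (y axis) from the paired fit over 4 pairs, with 1 point per gene tested. The 97 genes higher distally (red) and 181 higher proximally (green) passed an adjusted p of 0.05, and Alx1 lies furthest to the right at 4.77.

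The distal patterning genes were led by Alx1, a homeobox gene of the facial mesenchyme that is best known from the frontonasal region and upper jaw. Alx1 was at 9.91, 10.24, 11.79 and 10.81 (log2) on distal arrays 1 to 4 and at 6.42, 5.80, 6.19 and 5.26 on proximal arrays 1 to 4. The ends did not overlap, and the proximal arrays averaged below the level of 6.07 that served as the filter on dim genes, so the difference of 4.77 (SE 0.36, adjusted p = 0.0078), 27.2-fold on this scale, is limited by the array's background. Both Alx1 probe sets passed, at 4.57 and 4.77. In the knockout maxilla Alx1 was high throughout, from 10.66 to 12.97.

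Hand2 and Hand1, basic helix-loop-helix factors of the distal arch, were both higher distally. Hand2 was at 12.38, 12.70, 13.11 and 12.80 on the distal and at 11.60, 11.39, 10.66 and 10.46 on the proximal arrays, a difference of 1.72 (SE 0.29, adjusted p = 0.0479). The groups did not overlap, the proximal level was itself high, and the gap was widest in pairs 3 and 4 (adjusted p of the difference between array sets = 0.0401). For Hand1 the distal arrays read 7.78, 7.88, 7.64 and 7.07 and the proximal arrays 6.98, 6.96, 6.59 and 6.75, without overlap and with a difference of 0.77 (SE 0.13, adjusted p = 0.0479). Of the 3 Hand2 probe sets tested, 1 passed, and the lowest of their differences was 1.16.

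Bmp4, a BMP ligand made in distal epithelium and then in mesenchyme, was at 10.89, 10.98, 11.67 and 11.30 distally and at 9.79, 9.69, 9.60 and 9.78 proximally. The proximal arrays were close together and every distal array lay above them, with a difference of 1.50 (SE 0.16, adjusted p = 0.0196). Foxf1, a forkhead gene that responds to Hedgehog signals, was at 9.11, 9.48, 9.75 and 9.45 distally and at 6.86, 7.34, 8.22 and 8.20 proximally, a difference of 1.79 (SE 0.18, adjusted p = 0.0163). Its 2 probe sets differed in size, 1.79 and 0.48, and 1 passed. Tfap2c, an AP-2 factor of neural crest and ectoderm, was at 10.79, 11.00, 9.90 and 9.92 distally and at 9.14, 9.52, 8.43 and 8.65 proximally, and its 3 probe sets all passed, with 1.47 (SE 0.09, adjusted p = 0.00539) for the brightest.

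As a list, distal arch patterning genes had 5 of 17 tested members higher distally (Hand1, Hand2, Alx1, Bmp4 and Foxf1; 0.701% of all genes) and 2 higher proximally (Dlx3 and Dlx4; 1.31% of all genes), with a median of 0.81 against -0.02 over all genes tested. Members that did not pass included Tbx3, a T-box repressor, at 1.14 (adjusted p = 0.0857), and the homeobox genes Msx1 at 0.81 (adjusted p = 0.222), Msx2 at 0.87 (adjusted p = 0.222) and Alx4 at 0.71 (adjusted p = 0.303). The Msx1 pairs read -0.08, 0.59, 1.59 and 1.14 and the Msx2 pairs -0.21, 0.93, 1.63 and 1.11, so pair 1 was below 0 for both genes and the other pairs above it. The difference between pairs 1 and 2 and pairs 3 and 4 did not pass for either gene (adjusted p = 0.122 and 0.249). The distal arch patterning list was written with earlier results of these data known, so its counts and median are not independent of them.

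**Figure D2:**
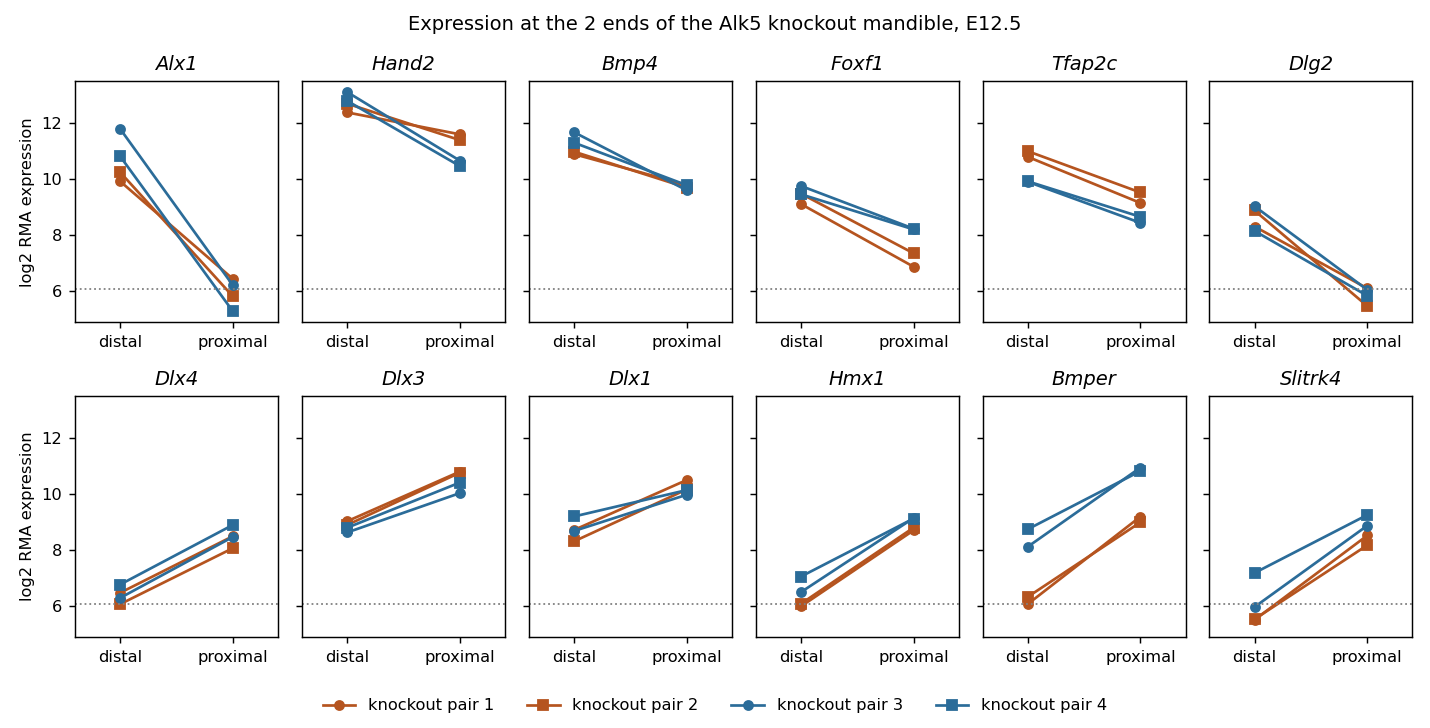
Log2 expression of 12 genes at the distal and proximal end, with a line for each of the 4 knockout pairs (pairs 1 and 2 orange, 3 and 4 blue). The dotted line is the level of 6.07 used to filter dim genes. All 4 lines fall from distal to proximal for Alx1, Hand2, Bmp4, Foxf1, Tfap2c and Dlg2, and rise for Dlx4, Dlx3, Dlx1, Hmx1, Bmper and Slitrk4.

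All 6 Dlx genes had a negative mean difference, and 3 of the 6 passed as higher proximally (background 1.31%). Dlx genes lie in the genome as neighbouring pairs, and along the arch they are the code that separates upper from lower jaw. Dlx4 was even over the pairs: 6.46, 6.06, 6.28 and 6.76 distally and 8.49, 8.06, 8.46 and 8.89 proximally, with pair differences of -2.03, -2.002, -2.18 and -2.13. That gave -2.09 (SE 0.07, adjusted p = 0.00112), the smallest adjusted p of the comparison. Its neighbour Dlx3 was at 9.02, 8.89, 8.62 and 8.79 distally and at 10.79, 10.76, 10.03 and 10.40 proximally, a difference of -1.67 (SE 0.10, adjusted p = 0.00539). For neither gene did the ends overlap.

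Dlx1, which with Dlx2 is active in both jaws, was at 8.71, 8.30, 8.67 and 9.19 distally and at 10.49, 10.16, 9.97 and 10.13 proximally, without overlap, and its difference was -1.47 (SE 0.16, adjusted p = 0.0198). Dlx2 had the same sign in 4 of 4 pairs but missed the threshold, at -0.86 (adjusted p = 0.0502). Dlx5 and Dlx6, the lower-jaw identity pair, did not pass either. Dlx5 was at 9.57, 9.73, 10.82 and 10.91 distally and at 11.48, 11.16, 11.14 and 11.45 proximally, a difference of -1.05 (adjusted p = 0.141). Its pairs read -1.91, -1.43, -0.32 and -0.54, and the difference between array sets did not pass (adjusted p = 0.0514). The Dlx6 difference was -0.45 (adjusted p = 0.343), and in pair 3 the distal array was the higher.

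A noncoding RNA gene beside each Dlx pair was lower distally as well. These were Dlx1as beside Dlx1 and Dlx2 at -2.42 (SE 0.30, adjusted p = 0.0226), Dlx4os beside Dlx3 and Dlx4 at -2.37 (SE 0.14, adjusted p = 0.00539), and Dlx6os1 beside Dlx5 and Dlx6 at -2.06 (SE 0.20, adjusted p = 0.0161). The ends did not overlap for any of the 3. Whether these probe sets keep such a transcript apart from its overlapping Dlx gene was not tested.

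Among genes of the proximal arch and jaw hinge, Barx1 and Dlx1 were higher proximally, and Eya1 and Eya4 higher distally, so 2 of the 23 tested members passed in each direction (0.701% of all genes distally and 1.31% proximally), with a list median of -0.64. Barx1, a homeobox gene of proximal mesenchyme and molar territory, was at 11.17, 10.90, 10.56 and 11.40 distally and at 12.14, 12.03, 11.71 and 11.98 proximally, a difference of -0.96 (SE 0.11, adjusted p = 0.0214). Eya1 and Eya4, transcriptional co-activators in organ development, differed by 0.78 (SE 0.13, adjusted p = 0.049) and 0.61 (SE 0.10, adjusted p = 0.0439). The 3 Eya4 probe sets ranged from 0.25 to 0.68, and none passed when all probe sets were tested and adjusted together. Members of the list with large differences that did not pass were Emx2 at -3.20 (adjusted p = 0.107), Pou3f3 at -2.59 (adjusted p = 0.251), Gbx2 at -3.28 (adjusted p = 0.0559) and Gdf5, a ligand of joint-forming cells, at -1.54 (adjusted p = 0.0501). For Emx2, Pou3f3 and Gbx2 the difference was larger in pairs 1 and 2, as in the Gbx2 pairs at -4.80, -4.66, -2.06 and -1.61 (adjusted p of the difference between array sets = 0.0111).

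Outside the lists fixed for this region, other homeobox and zinc-finger genes were higher proximally, with Hmx1 and Zic1 among the 15 largest differences named. Hmx1, a homeobox gene of the branchial arches, ear and eye, was at 5.97, 6.07, 6.48 and 7.04 distally and at 8.69, 8.79, 9.13 and 9.12 proximally. The 4 proximal arrays were nearly alike and all stood above the distal arrays, with -2.54 (SE 0.13, adjusted p = 0.00513). Zic1, a zinc-finger gene of dorsal neural tissue and mesenchyme, was at 5.58, 4.64, 5.93 and 6.17 distally and at 6.75, 7.13, 8.39 and 9.14 proximally, a difference of -2.27 (SE 0.28, adjusted p = 0.0226). Lhx2, a LIM-homeobox gene of eye, brain and limb, differed by -1.75 (SE 0.29, adjusted p = 0.0452), and Irx2 and Irx4, Iroquois homeobox genes, by -1.44 (SE 0.18, adjusted p = 0.0226) and -1.41 (SE 0.24, adjusted p = 0.0473).

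Forkhead genes that lie near each other in the genome differed in opposite directions. Foxf1 and Foxc2 lie on either side of Mthfsd, which was at 0.09 (adjusted p = 0.738). Foxc2, a gene of mesenchyme and vessels, was at 9.72, 9.12, 8.95 and 8.66 distally and at 10.56, 10.75, 10.16 and 10.08 proximally, a difference of -1.27 (SE 0.14, adjusted p = 0.0196) against 1.79 for Foxf1. Foxf2 and Foxc1 are neighbours as well. Foxf2 was higher distally, 0.70 (SE 0.09, adjusted p = 0.0271), and Foxc1 higher proximally, -1.48 (SE 0.16, adjusted p = 0.0198), with Foxc1 at 8.19, 7.35, 8.20 and 8.10 on the distal and 9.02, 9.03, 9.95 and 9.76 on the proximal arrays. The noncoding gene Fendrr, next to Foxf1, did not pass, at 2.72 (adjusted p = 0.0529), and Foxl1, next to Foxc2, was at -0.20 (adjusted p = 0.335).

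The Hedgehog pathway list held 4 of 17 members higher distally, Foxf1, Foxf2, Gli1 and Ptch1, and 1, Foxc2, higher proximally, where 0.701% and 1.31% of all genes passed in these directions. The list median was 0.10. Gli1 and Ptch1 are direct targets of the pathway, Ptch1 being also its receptor. Gli1 was at 10.02, 10.59, 9.09 and 8.94 distally and at 9.48, 9.62, 7.89 and 7.89 proximally: the distal array was higher in each pair while the ends overlapped, since pairs 1 and 2 read higher than pairs 3 and 4 at either end. The differences were 0.94 (SE 0.12, adjusted p = 0.0238) for Gli1 and 0.62 (SE 0.10, adjusted p = 0.0449) for Ptch1. Shh, the ligand, did not pass, at 0.77 (adjusted p = 0.139).

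In the BMP pathway, the ligand Bmp4 was higher distally while a receptor and a secreted regulator were higher proximally, 1 and 2 of 25 tested members (0.701% and 1.31% of all genes), with a median of -0.03. Bmper, a secreted BMP-binding protein, was at 6.06, 6.31, 8.11 and 8.73 distally and at 9.18, 8.98, 10.94 and 10.81 proximally, 6.4-fold higher proximally on this scale (difference -2.68, SE 0.17, adjusted p = 0.00555). Bmpr1b, a type I BMP receptor, was at 8.60, 8.13, 7.69 and 8.61 distally and at 10.61, 10.61, 10.09 and 10.34 proximally, with a difference of -2.15 (SE 0.14, adjusted p = 0.00605). The ends did not overlap for either gene. Bmpr1a, the other main type I receptor, was at -0.39 (adjusted p = 0.271), and Bambi, a pseudoreceptor, at 1.05 (adjusted p = 0.108).

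In the WNT, FGF and retinoic acid lists 1, 3 and 0 members passed, where 2.01% of all genes passed in either direction. Of 31 WNT pathway genes, Wnt5a alone passed, a ligand of outgrowth, which was at 10.94, 10.92, 12.56 and 12.27 distally and at 10.18, 9.86, 11.68 and 11.55 proximally, a difference of 0.86 (SE 0.09, adjusted p = 0.0163). The array sets differed in Wnt5a level, so the ends overlapped although each distal array was above its partner. The secreted WNT inhibitor Dkk1 was at 1.66 (adjusted p = 0.0536). Of 18 FGF pathway genes, Fgfr3, a receptor, at 0.54 (adjusted p = 0.0424) and Etv4, an FGF-induced Ets factor, at 0.78 (adjusted p = 0.0459) were higher distally and the feedback inhibitor Spry2, at -0.66 (adjusted p = 0.0333), higher proximally. The 2 Fgfr3 probe sets read 0.20 and 0.54, and neither passed when all probe sets were tested and adjusted together. None of the 13 retinoic acid genes tested passed.

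Among 22 TGF-beta ligands, receptors and Smads, Inhba, which encodes a subunit of activin A, was the 1 member that passed (2.01% of all genes). It was at 8.46, 8.40, 9.87 and 9.24 distally and at 7.16, 6.84, 8.56 and 8.52 proximally, 1.22 (SE 0.14, adjusted p = 0.021), with the distal array higher in each pair. Tgfbr2, the type II receptor that acts with Alk5, was at -0.20 (adjusted p = 0.246), and Tgfb2, a ligand, at 0.54 (adjusted p = 0.282). Of 19 TGF-beta target genes, Fbln5, an elastic fibre protein, passed, higher proximally at -0.57 (SE 0.09, adjusted p = 0.0414), and the list median was -0.03.

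Other large differences did not belong to the patterning lists. Higher distally were Dlg2, a synaptic scaffold, at 2.73 (SE 0.21, adjusted p = 0.0078), Hpse2, a heparanase-like protein, at 2.33 (SE 0.30, adjusted p = 0.0265), Dio2, which makes active thyroid hormone, at 2.14 (SE 0.37, adjusted p = 0.0494), and Gpr50, an orphan receptor related to melatonin receptors, at 1.91 (SE 0.23, adjusted p = 0.0213). Dlg2 was at 8.30, 8.87, 9.02 and 8.14 distally and at 6.09, 5.46, 6.04 and 5.82 proximally, where it averaged below the filter level of 6.07. Its 2 probe sets read 1.21 and 2.73 and those of Gpr50 0.67 and 1.91. For each gene 1 of the 2 passed when all probe sets were tested and adjusted together. Dio2 shows the split between array sets: it was at 9.67, 9.76, 7.65 and 7.01 distally and at 6.19, 7.43, 5.90 and 5.98 proximally, so distal array 4 lay within the proximal range. Masp1, a protease of the complement lectin pathway, Lrrn3, a neuronal leucine-rich repeat protein, Dapl1, Rgcc, a cell cycle regulator, and Kcnmb2, a potassium channel subunit, were higher distally by 1.86, 1.83, 1.46, 1.41 and 1.41, with adjusted p of 0.0348, 0.0213, 0.0381, 0.00826 and 0.0078.

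Higher proximally was Slitrk4, a neuronal leucine-rich repeat membrane protein, at 5.50, 5.52, 5.95 and 7.17 on the distal and 8.51, 8.16, 8.86 and 9.25 on the proximal arrays (difference -2.66, SE 0.16, adjusted p = 0.00539). Calb1, which encodes the calcium-binding protein calbindin, differed by -2.51 (SE 0.40, adjusted p = 0.0448) with overlap of the ends, since distal array 3 read higher than proximal arrays 1 and 2. Ghrh, a neuropeptide gene, differed by -2.34 (SE 0.18, adjusted p = 0.0078), Pcdh10, a protocadherin, by -2.05 (SE 0.32, adjusted p = 0.0414) and Lrrc4c, a netrin-G ligand, by -2.01 (SE 0.16, adjusted p = 0.00901). Shisa3, a regulator of WNT and FGF receptors, and Fabp7, a fatty acid binding protein of glia, differed by -1.88 (SE 0.26, adjusted p = 0.0313) and -1.86 (SE 0.28, adjusted p = 0.0372). On the distal side Slitrk4, Calb1, Ghrh, Zic1 and Lrrc4c averaged below the filter level, as Hpse2 and Kcnmb2 did on the proximal side. Among genes named in other paragraphs, Lhx2, Gbx2 and Aif1 also averaged below it distally, at 4.85, 4.70 and 5.91.

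Macrophage genes were mostly lower distally. Of 16 tested members 6 passed, all higher proximally (background 1.31%), 14 were lower distally in 4 of 4 pairs, and the median was -0.71. Tyrobp, an adaptor of myeloid receptors, was at 8.17, 8.16, 8.18 and 8.27 distally and at 9.08, 9.08, 9.40 and 8.87 proximally, without overlap (difference -0.91, SE 0.11, adjusted p = 0.0213). C1qc and C1qb, subunits of complement C1q, differed by -1.01 (SE 0.10, adjusted p = 0.0163) and -0.86 (SE 0.12, adjusted p = 0.0315), and Aif1, Fcgr3 and Adgre1 by -0.79, -0.87 and -0.48. Csf1r, the receptor that defines the lineage, did not pass, at -0.62 (adjusted p = 0.0703). The summed level of the 16 genes was 11.84 to 11.97 (log2) on the distal and 12.39 to 12.85 on the proximal arrays.

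Genes of glia and neurons that passed were higher proximally, as were 1.31% of all genes. Of 14 Schwann precursor, glia and melanoblast genes, Fabp7 and Sox10 passed, both higher proximally, with a list median of -0.46. Sox10, a crest and glial transcription factor, was at -0.65 (limma, SE 0.11, adjusted p = 0.0452). Its 3 probe sets ranged from -0.65 to -0.11, and none passed when all probe sets were tested and adjusted together. Of 19 neuron genes 1 passed, Syt1, a synaptic vesicle calcium sensor, higher proximally at -0.78 (SE 0.09, adjusted p = 0.021). The array sets were not alike: the glia list median was -0.15 in pairs 1 and 2 and -0.51 in pairs 3 and 4. The summed neuron level was higher distally in pairs 1 and 2, at 12.60 and 12.53 against 12.17 and 12.13. In pairs 3 and 4 it was higher proximally, at 13.15 and 12.84 against 12.62 and 12.65 distally. In the brain and eye list, Lhx2 was the 1 of 8 that passed.

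Epithelial and endothelial genes had differences nearly all above 0, with list medians of 0.15 and 0.21. Among 24 epithelial genes, 22 were above 0, against 6312 of the 13837 genes tested, and 3 passed (0.701% of all genes passed in this direction): Dsg2 and Dsc3, desmosomal cadherins, at 0.95 (SE 0.13, adjusted p = 0.0306) and 1.45 (SE 0.23, adjusted p = 0.0424), and Sfn, the epithelial 14-3-3 protein, at 0.44 (SE 0.07, adjusted p = 0.0433). All 18 endothelial genes were above 0, and Flt4, a receptor of lymphatic and venous endothelium, was the 1 that passed, at 0.55 (SE 0.07, adjusted p = 0.0285). The summed level of the epithelial list was 14.94 to 15.08 on distal and 14.40 to 14.81 on proximal arrays, and of the endothelial list 13.35 to 13.66 and 13.03 to 13.34. The brain and eye list summed to 8.72 to 9.83 distally and 10.59 to 10.80 proximally, and the cartilage list to 13.05 to 13.69 and 13.79 to 13.92. Thus marker sums of epithelium, endothelium, macrophages, cartilage and brain and eye did not overlap between the ends. Neither did the sums of the distal arch, proximal arch, Dlx and maxillary and frontonasal lists. The sums of every other list among the 32 overlapped, as for neurons, glia, muscle fibre, erythroid, tendon and bone genes. The endothelial gap was narrow, from 13.337 on the highest proximal to 13.355 on the lowest distal array. A sum follows its brightest members: Emx2, which did not pass, alone read 10.03 to 10.36 on the proximal arrays within the brain and eye sum. The cartilage list had 9 members above 0 and 11 below, with a median of -0.03. The part of these cell types in the other differences was not tested.

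Of the cartilage, tendon and extracellular matrix genes 2 members each passed, where 2.01% of all genes passed in either direction. Of 20 cartilage genes, Col9a1, a fibrillar-associated collagen of cartilage, was higher proximally, at 11.95, 11.76, 11.88 and 11.60 on the distal and 12.55, 12.66, 12.55 and 12.51 on the proximal arrays (difference -0.77, SE 0.09, adjusted p = 0.0203), and Fgfr3 was higher distally. Sox9, the master factor of cartilage, was at -1.31 (adjusted p = 0.158) and Col2a1, its main collagen target, at -0.82 (adjusted p = 0.0755). None of 13 bone genes passed, although their median was 0.53: Sp7, the osteoblast factor, was at 1.28 (adjusted p = 0.208) and its difference lay mostly in pair 3 and pair 4, as the pair values 0.13, 0.66, 2.65 and 1.69 show, though the difference between array sets did not pass (adjusted p = 0.0782). Among 16 tendon genes, Thbs4, a tendon matrix protein, was higher proximally at -0.98 (SE 0.10, adjusted p = 0.0173) and Eya2 higher distally at 0.78 (SE 0.10, adjusted p = 0.0231). Of 32 extracellular matrix genes, Lox, the collagen cross-linking enzyme, and Fbln5 were higher proximally, Lox at -1.72 (SE 0.20, adjusted p = 0.0213).

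Of 31 sarcomere and muscle fibre genes none passed, with a median of -0.30 that was 0.15 in pairs 1 and 2 and -0.73 in pairs 3 and 4. None passed among the 14 hypoxia and glycolysis genes, the 25 cell cycle genes, the 18 immediate early and stress genes, the 9 erythroid genes or the 8 Hox genes. Medians of these lists were 0.08, -0.10, -0.10, 0.09 and -0.45. In the oral and palatal list Foxf1 and Foxf2 were higher distally, and Barx1 and Mn1, a transcriptional co-regulator at -0.87 (SE 0.09, adjusted p = 0.0172), higher proximally, 2 of 17 each way (0.701% and 1.31% of all genes).

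**Figure D3:**
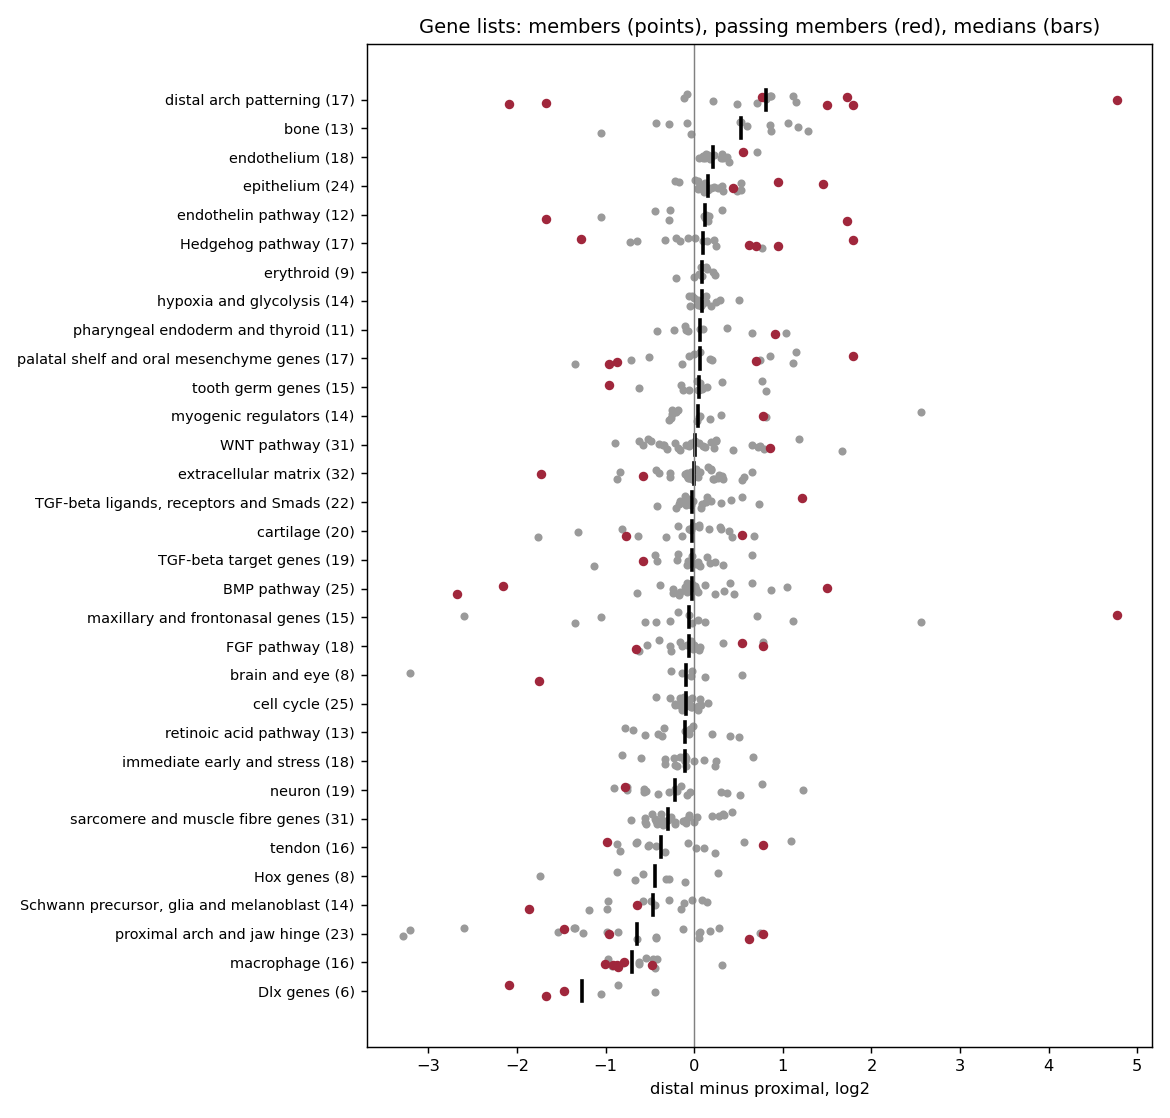
Distal minus proximal difference (log2, x axis) of each tested member of 32 gene lists (rows, with the number of members tested in brackets). The lists were written with earlier results of these data known. Red points passed an adjusted p of 0.05, grey points did not, and the black bar is the list median, highest for distal arch patterning genes (0.81) and lowest for Dlx genes (-1.26).

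The 4 pairs were not alike over the genome. Distal minus proximal differences correlated across the 13837 genes at 0.67 between pairs 1 and 2 and at 0.69 between pairs 3 and 4, but at 0.14 to 0.35 between those sets (genes are not independent, and arrays of a set share the RNA quality given above). The mean of the hybridisation controls (log2) also split by set, at 11.32 to 11.91 on arrays 1 and 2 and 8.76 to 9.06 on arrays 3 and 4. Fitted apart, pairs 1 and 2 gave 262 genes (1.89%) and pairs 3 and 4 gave 766 (5.54%), and 124 were called in both, 47.3% of the first list and 16.2% of the second. Of the 124, 120 had the same sign, 41 of them higher distally. Over all genes tested 52.6% had the same sign in both sets.

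A test of the difference between the sets, added after the data had been seen, called 207 genes (1.5%; 136 positive, 0.983%, and 71 negative, 0.513%, as pairs 1 and 2 minus pairs 3 and 4), of which 4 are among the 278: Hand2, Pcdh10, Irx4 and Dgkk. Hoxa2, the selector gene of the second arch, stood out. It was at 6.62, 6.47, 4.75 and 4.59 distally and at 4.24, 5.44, 9.88 and 9.80 proximally, high only on proximal arrays 3 and 4, and the sets differed by 6.88 (SE 0.41, adjusted p = 0.0111). Hoxb2 and Hoxd3 also differed between the sets (adjusted p = 0.0142 and 0.0121), with pair differences of 1.02, 0.35, -1.79 and -1.88 and of 0.55, 0.26, -1.84 and -1.63. Epyc, an epiphycan gene of cartilage, was also high only on proximal arrays 3 and 4, at 5.12, 5.11, 8.75 and 8.07 on the proximal and 5.07, 5.08, 5.01 and 4.83 on the distal arrays.

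Pou3f3 and Emx2, transcription factors listed with the proximal arch, differed the other way. Pou3f3 was at 4.97, 6.17, 10.80 and 11.08 distally and at 10.34, 10.30, 11.37 and 11.38 proximally, and Emx2 at 5.54, 4.68, 8.96 and 8.89 and at 10.14, 10.03, 10.36 and 10.35, so both were lowest on distal arrays 1 and 2. The 2 Pou3f3 probe sets differed in size over the 4 pairs, at -2.59 and -0.41. Fgf8, the ligand of oral ectoderm, was at 6.64, 6.72, 6.52 and 6.56 distally and at 8.77, 8.94, 5.13 and 6.09 proximally: the proximal arrays were the higher in pairs 1 and 2 and the lower in pairs 3 and 4. Pax3, a crest and muscle precursor factor, was higher distally in each pair, by 0.39, 1.59, 4.32 and 3.94, mostly in pairs 3 and 4. Isl1, a factor of distal epithelium and neurons, had its larger difference in the other set, with a mean of 2.34 in pairs 1 and 2 and 0.12 in pairs 3 and 4. RNA quality and array set cannot be told apart here, and the test (limma) called 0 genes without replicate 3 or without replicate 4, with 1334 and 1723 at an unadjusted p under 0.05. Each of these leaves 1 pair in its set, assumed to vary like the other set, which alone gave the spread, so the 0 says little about stability.

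**Figure D4:**
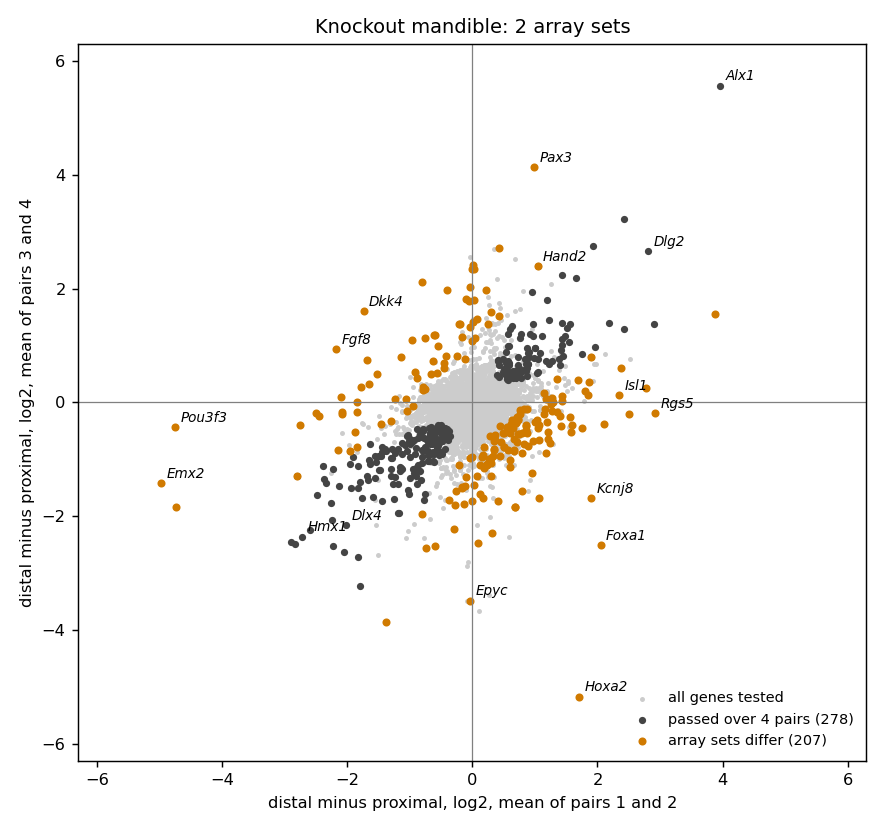
Mean distal minus proximal difference (log2) in pairs 1 and 2 (x axis) against pairs 3 and 4 (y axis), with 1 point per gene tested. Genes that passed over 4 pairs (dark) lie along the diagonal, and the 207 genes whose difference depended on the array set (orange, which covers the 4 that passed both) lie mostly off it, with Hoxa2 lowest.

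Set against control mandible, no gene's difference between ends passed (0 of 13837, 0%; limma, 520 genes at an unadjusted p under 0.05, smallest adjusted p 0.52). The control pairs ran in opposite directions (correlation -0.78 across genes), which gave many genes that separate the ends a large error here. For Alx1 the knockout minus control difference was 4.93 with an SE of 2.87. Such genes could hardly pass, so the 0 does not show that the ends differ alike in both genotypes. The 5 genes with the smallest p, none passing, were Kcnmb2, Cacna2d2, Ckmt1, Ebf3 and Arg1, with a difference of 2.09 (adjusted p = 0.519) for Kcnmb2. Of the 278 genes, 249 (89.6%, against 59% of all genes) had the knockout direction in the control pair labelled 1 and 21 (7.55%, against 39.8%) in the control pair labelled 2. Without control replicate 1 the test called 161 genes and without control replicate 2 it called 1. Each leaves 1 control pair, assumed to vary like the knockout pairs, which alone gave the spread, so these counts have no spread among controls behind them. Dlx4 shows the pattern: distal minus proximal was -2.03, -2.002, -2.18 and -2.13 in the knockout pairs, -2.10 in the control pair labelled 1 and 1.87 in the one labelled 2.

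Set against the knockout maxilla, 3 genes differed in their end effect (0.0217%; 2 negative, 0.0145%, and 1 positive, 0.00723%; 910 at an unadjusted p under 0.05). Dlx4 and Dlx4os were lower distally in the mandible, while in the maxilla the Dlx4 pairs read -0.06, 0.32, 0.99 and 0.33 and the Dlx4os pairs 0.06, -0.03, 1.11 and -0.13. The mandible minus maxilla effects were -2.48 (SE 0.20, adjusted p = 0.0102) and -2.63 (SE 0.29, adjusted p = 0.0435). Asb4, which encodes an ankyrin repeat protein of ubiquitin ligases, was the third. Its difference was 0.57 (adjusted p = 0.0561) in mandible, its maxilla pairs read -1.33, -1.36, -2.36 and -1.76, and the effect was 2.27 (SE 0.23, adjusted p = 0.0347). Dlx1 pairs read -1.79, -1.86, -1.30 and -0.94 in mandible and -3.36, -3.65, -2.62 and -1.42 in maxilla, all negative. Of the 278 genes 231 (83.1%) shared their direction with maxilla pair 4, but 57.6%, 48.2% and 52.9% with pairs 1, 2 and 3, where over all genes the shares were 57.5% for pair 4 and 63.8%, 37.8% and 55.2% for the others. The count was 46 without replicate 4 and 0 without replicate 1 or replicate 2.

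**Figure D5:**
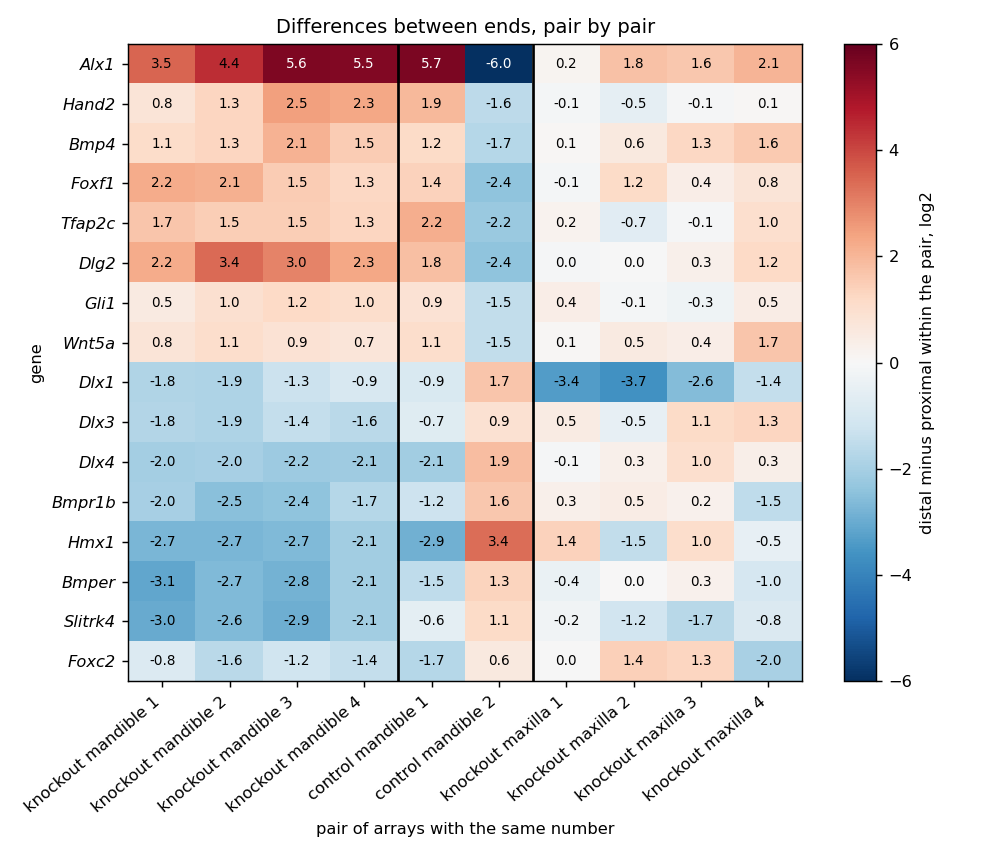
Distal minus proximal difference (log2, colour and printed value) of 16 genes (rows) in each pair of arrays with the same number (columns): 4 of knockout mandible, 2 of control mandible and 4 of knockout maxilla. Each row keeps its sign over the 4 knockout mandible pairs and control pair 1, and turns in control pair 2, where Alx1 reads -5.99.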

How the data were processed

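Expression was measured on 24 Affymetrix arrays. Log2 values as deposited were used without further scaling; the submitters' processing notes name RMA, and no version is given in the sources used here. Sample groups came from titles.

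Control features (64) were left out. Of 45101 features, 34945 had 1 gene symbol, 932 several and 9160 none in the platform annotation, and for 34741 the RefSeq table (GRCm38.p6, used for names and neighbours) held the gene. Genes kept lay above the 40th percentile of values (6.07) on at least 2 of 24 arrays, each by its brightest probe set over all arrays, which left 13837. Linear models (lmFit, eBayes) were fitted with limma 3.58.1 under R 4.3.3 (2-sided, Benjamini-Hochberg over all 13837, threshold 0.05) with the replicate number as a block. The number of arrays limits the precision. Same-number arrays of the 2 ends deviated together from the group means (0.71, 0.83, 0.74 and 0.82), so the numbers were taken as pairs, although arrays of unlike number in a set correlated about as well (0.70 to 0.75). With the mean of each array set and end taken out, same-number arrays correlated at 0.22 and 0.21, so the first values mostly follow the array set. No 2 of the 8 arrays were duplicates (correlations 0.91 to 0.99). On simulated data with 13837 genes the main test recovered 40%, 76%, 92% and 100% of 50 genes changed by 0.5, 1, 2 and 3 (log2). The simulated deviations were drawn independently for each array, whereas the real pair differences clustered by array set, so these rates may not hold for the real arrays.

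Members and the 32 gene lists were chosen with earlier results of these data known. Genes were named as the 15 largest differences each way past the threshold with the same sign in 4 pairs (predicted genes and clones left out), up to 4 members of each list by p, members of the distal, proximal and Dlx lists, and up to 5 each way for each comparison of end effects. Others named (Fendrr, Foxl1, Bmpr1a, Bambi and the like) were chosen after their values were seen. Promoters came from the RefSeq table, which was not matched for Alx1, Foxf1, Dlx3 and Dlx4. Alternatives covered the block, all 24 arrays, centring, the filter, the probe set, the variance trend, RNA quality and leaving out each replicate.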

Additional observations from a re-analysis of the deposited data

Results flagged for a closer look

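Within groups of 4 arrays, 2 of 100 sets of values had an array far from the others: Hpse2 on distal array 3 read 7.65, with the other distal arrays at 6.55 to 6.71, and Rgcc on proximal array 3 read 9.05, with the others at 8.18 to 8.23. Chance alone flags about 1 in 20 such groups.

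The difference between the ends was not the same in the knockout mandible and maxilla for 3 genes: Dlx4os (-2.63), Dlx4 (-2.48) and Asb4 (2.27).

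Between the array sets of the knockout mandible, the difference between the ends changed for 207 genes. Values for pairs 1 and 2 minus pairs 3 and 4 were 6.88 for Hoxa2, 4.56 for Foxa1, 3.58 for Kcnj8, 3.44 for Epyc and 3.11 for Rgs5, and -4.32 for Pou3f3, -3.55 for Emx2, -3.35 for Dkk4, -3.14 for Pax3 and -3.11 for Fgf8. Foxa1, a forkhead gene of endoderm, was at 9.42, 9.33, 5.17 and 5.62 on the distal and 6.74, 7.90, 8.37 and 7.43 on the proximal arrays, and Rgs5, a pericyte gene, at 8.82, 9.41, 9.48 and 8.75 and 6.02, 6.36, 9.82 and 8.78. The 4 Rgs5 probe sets ranged from 0.07 to 1.37 in their difference over the 4 pairs, and only the brightest entered the test of array sets. Kcnj8, a potassium channel of vessel walls, had pair differences of 2.04, 1.76, -2.50 and -0.86, and Dkk4, a WNT inhibitor, of -2.14, -1.34, 1.99 and 1.22.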

How the results depend on the processing

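The paired comparison of the ends called 278 genes (97 distal, 181 proximal). The count was 18 (7 and 11) with no replicate block, 8 (3 and 5) in 1 fit of all 24 arrays with group means, 85 (30 and 55) with a random block, where the replicate correlation was 0.53, 766 (250 and 516) in pairs 3 and 4 only, and 587 (234 and 353) with the array set as the block, added after seeing the data. Leaving out a replicate gave 13 to 146 genes (2 to 58 distal, 11 to 88 proximal), the fewest without replicate 2. Of the 60 called named genes none reversed under any alternative. All had the same sign in 4 of 4 pairs, so leaving out pairs or the block could not reverse a sign. Only centring, another probe set or the RNA quality covariate could have done so. The pairing changed the call of 51. With the probe set of largest variance, which called 201 genes in all, 14 of the 60 lost their call. With RNA quality as a covariate, which called 388 in all, 9 of the 60 lost it. Without replicate 2, 50 lost it. Those that remained there were Dlx3, Dlx4, Dlx4os, Hmx1, Bmper, Bmpr1b, Slitrk4, Lox, Dlg2 and Tfap2c.

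The genotype comparison (0 genes) gave 0 to 161 genes when a replicate was left out, and 6 with the control numbers crossed in the replicate block, chosen after seeing that same-number control arrays deviated in opposite ways (-0.68). The jaw comparison (3 genes) gave 0 with group means, 5 with median-centred arrays, 7 without filter, 6 with a stricter filter, 7 with a variance trend, 1 with RNA quality as a covariate, 0 and 1 in replicates 1 and 2 or 3 and 4 only, and 0 to 46 when a replicate was left out. The array set comparison (207 genes) gave 311 with a trend, 357 with the array set in place of the replicate block, and 0 to 383 when a replicate was left out. The causes were not tested.

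Reversed signs among genes not called over the 4 pairs included these: Hoxa2 was at 1.70 in pairs 1 and 2 only; Tgfbr1 was at 0.028 with RNA quality as a covariate, between -0.148 and 0.027 when a replicate was left out and at 0.10 in pairs 3 and 4 only; Lhx6 was between -0.20 (without replicate 3) and 0.60 (without replicate 1), with -0.07 without replicate 4, and at -0.76 in pairs 1 and 2 only; and Fgf8 at 0.59 with RNA quality as a covariate and 0.93 in pairs 3 and 4 only. Foxa1 was at 2.05 in pairs 1 and 2 only, and in pairs 3 and 4 only Kcnj8 was at -1.68, Rgs5 at -0.19 and Dkk4 at 1.605, which passed there (limma, adjusted p = 0.00907). Dim genes near 6.07 have differences limited by background.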

Other observations

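Further transcription factors, chosen after their values were seen, separated the ends. Tbx5, a T-box gene best known from heart and forelimb, was at 7.94, 7.47, 7.86 and 7.61 on the distal and 6.81, 6.59, 6.61 and 6.95 on the proximal arrays, without overlap (difference 0.98, SE 0.11, adjusted p = 0.021). Nkx2-3, a homeobox gene of pharyngeal endoderm and floor, was at 7.57, 7.20, 7.01 and 7.46 distally and at 6.51, 6.51, 6.19 and 6.38 proximally, also without overlap (difference 0.91, SE 0.09, adjusted p = 0.0173). Jag1, a Notch ligand, was higher distally by 0.80 (SE 0.13, adjusted p = 0.046).

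Towards the proximal end, Dach1 and Dach2, nuclear co-factors that work with Eya proteins, differed by -1.73 (SE 0.21, adjusted p = 0.0214) and -1.33 (SE 0.09, adjusted p = 0.00701), opposite in sign to Eya1, Eya2 and Eya4. Dach2 was at 7.07, 7.28, 6.64 and 7.04 distally and at 8.60, 8.71, 7.91 and 8.14 proximally, without overlap. Ebf1, a helix-loop-helix factor, differed by -1.51 (SE 0.24, adjusted p = 0.0439) and Ntn1, the guidance molecule netrin-1, by -1.16 (SE 0.14, adjusted p = 0.0213), both with overlap of the ends between array sets.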
